A study of Glycine max with 47 samples.

Results

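In roots of the soybean cultivar MN1806CN, 150 genes were followed that stood lower at 30 days post infestation (dpi) in plants carrying both the soybean cyst nematode (SCN) and the soybean aphid (SBA) than in plants carrying either pest alone or none. In all groups dpi counts the days from the infestation with SBA. SCN eggs were added at planting, so SCN had been present for longer than the dpi given. They were 150 of the 55983 genes in the deposited table. All 150 were also among the 43122 genes tested, which had 0.5 CPM (estimated counts scaled to a fixed library total) or more in some library. The choice rested on log2(CPM + 1). For each gene, the highest of the 3 MN1806CN libraries with both pests (SCN:SBA) at 30 dpi was subtracted from the lowest of the other 8 MN1806CN libraries at 30 dpi, and the genes were ranked by this gap. A gene was passed over where its median in the PI518671 control libraries at 5 dpi was 1 or more below the median of the other 9 PI518671 libraries at 5 dpi. The gap was chosen on measured values, so the fall in MN1806CN at 30 dpi is a description here and carries no test.

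SCN is a sedentary endoparasite of roots. Its juveniles enter the root, move to the vascular cylinder and turn root cells into a syncytium, a feeding site on which the female depends until she forms a cyst. SBA feeds on phloem sap of the leaves and stems, so that a root responds to it only through signals or resources that travel within the plant. In SCN-resistant soybean the juveniles still enter, and the syncytium then fails to sustain them.

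The study crossed cultivar, infestation and time. MN1806CN is resistant to the SCN population used and susceptible to SBA, and PI518671 (Williams 82) is susceptible to both. Each cultivar had 4 groups, SCN:SBA, SCN alone, SBA alone and an uninfested control, sampled at 30 and 5 dpi. RNA of whole roots gave 47 libraries in 16 groups of 3, except for the MN1806CN control at 30 dpi with 2. Roots hold many cell types, and in such bulk samples fewer cells of a type and less RNA per cell cannot be told apart. Plants of 30 dpi stood in one water bath and those of 5 dpi in another, so time and water bath cannot be told apart in any comparison between the time points.

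Library totals ranged from 8472717 to 47902174 estimated counts. They were 15139964 to 33076203 in the 3 MN1806CN SCN:SBA libraries at 30 dpi and 15975636 to 26274456 in the other 8 at that time. A gene at 0.5 CPM had 4.24 counts in the smallest of the 47 libraries and 24.0 counts in the largest, so differences near that level rest on few counts. Intervals and limits from counts cover counting error only. The PI518671 control at 5 dpi held 2 libraries that stood apart, with a median over all tested genes of 1.94 and 1.96 on the log2(CPM + 1) scale, against 2.86 in the third. Those libraries entered the choice of genes, and without them 66 of the 150 would still have been taken. The table gives gene identifiers without names or functions, and none of its 55983 identifiers matched the annotation used here. The roles of these genes and the labelled tissue were therefore not checked against known markers, and genes are given by their rank of the gap, with an identifier for 4 of them.

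The gap was largest for the gene of rank 1, at 1.78, and was 1.38 at rank 2, 1.03 at rank 10, 0.65 at rank 50 and 0.45 at rank 100. At the edge of the choice the last 3 genes taken had gaps of 0.370, 0.370 and 0.368, and the first 3 not taken had 0.366, 0.366 and 0.366. The edge therefore fell where neighbouring genes differed little. A gap above 0 was found in 2114 tested genes, 4.9% of all, and in 1.95% of those that passed the PI518671 condition. That condition shaped the list strongly. It removed 70.6% of the genes in the whole table with a gap above 0, and of the 150 genes with the largest gaps before it only 6 were kept.

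The levels of the 150 genes spanned a wide range. Their mean over the 8 other MN1806CN libraries at 30 dpi ran from 0.946 to 1623 CPM with a median of 17.9 CPM, and their mean in the 3 SCN:SBA libraries ran from 0 to 647 CPM with a median of 4.02 CPM. Summed over all 150, the SCN:SBA libraries of MN1806CN at 30 dpi held 2754, 4240 and 3574 CPM. The same sum averaged 8193 CPM with SCN alone, 10846 CPM with SBA alone and 12020 CPM in the control. The difference of the mean log2(CPM + 1), SCN:SBA minus the other 8 libraries, ran from -3.49 to -0.65 with a median of -1.47. In the 3 SCN:SBA libraries 30, 21 and 36 of the genes were under 0.5 CPM, against at most 1 in any of the other 8. For 2 genes all 3 SCN:SBA libraries were at 0, where 3 counts per library would allow up to 0.198, 0.136 and 0.0907 CPM.

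As a single summary, the median log2(CPM + 1) of the 150 genes was taken in each library. It was 2.05, 2.66 and 2.29 in the MN1806CN SCN:SBA libraries at 30 dpi. With SCN alone it was 3.88, 3.74 and 3.40, with SBA alone 4.35, 4.36 and 4.36, and in the control 4.54 and 4.30. The 3 SCN:SBA libraries were the lowest, which the choice of genes fixed, and SCN alone lay between them and the other groups without overlap. Over all tested genes the same median was not lower with SCN:SBA, with 3.10, 2.998 and 2.75 against 2.72 to 2.90 in the other 8 libraries.

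**Figure D1:**
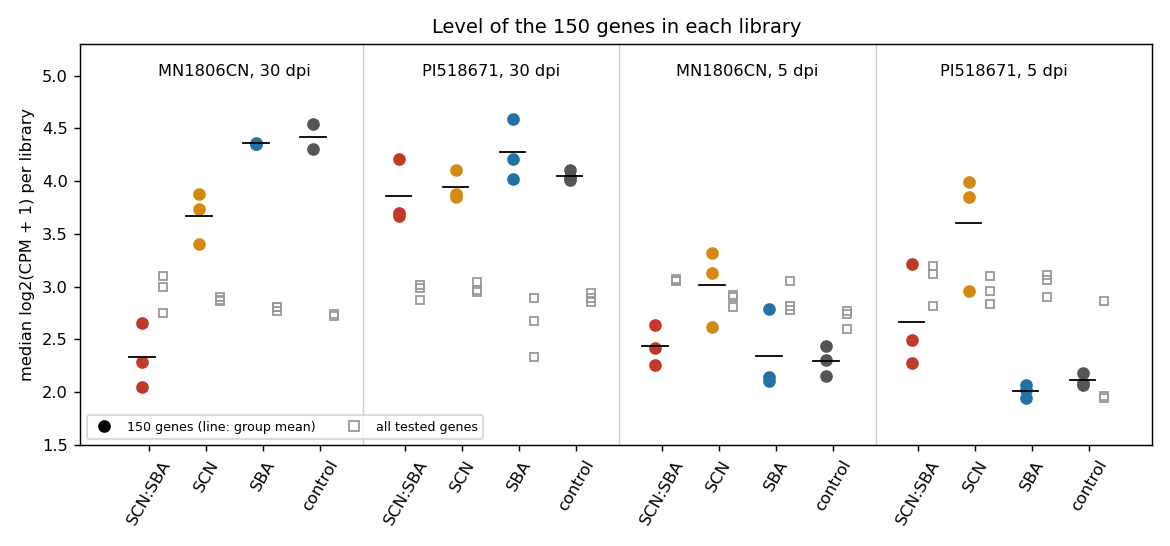
Median log2(CPM + 1) of the 150 genes in each library (filled circles, with the group mean as a line) and of all tested genes (open squares), by cultivar, time and treatment. The 3 MN1806CN SCN:SBA libraries at 30 dpi sit between 2.05 and 2.66, below every other library of that time point, and the MN1806CN libraries at 5 dpi sit between 2.11 and 3.32.

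Among the 3 other MN1806CN groups at 30 dpi, SCN alone held the lowest mean for 115 of the 150 genes, SBA alone for 25 and the control for 10. The shares of all tested genes with their lowest mean in each of these groups were not computed. All SCN libraries were below both control libraries in 89 of the 150 genes, where 13.3% of all tested genes showed this, and above both in 3, where 21.9% did. All SBA libraries were below both control libraries in 45 genes (14.5% of all tested) and above in 10 (14.2%). The median difference in log2(CPM + 1) was -0.51 for SCN minus control and -0.11 for SBA minus control, and set against each other SCN was below SBA by 0.34 in the median gene. These 8 libraries entered the choice through their minimum, and both comparisons share the 2 control libraries, so the counts are given as a description. The library that set the minimum was SCN replicate 3 for 70 genes and SCN replicate 2 for 30. On the other side, SCN:SBA replicate 2 held the highest of the SCN:SBA values for 97 genes, and without that library 84 of the 150 would have been taken.

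Glyma.11g220300, on chromosome 11 by its identifier, had the largest gap. It was at 2.97, 4.09 and 4.72 CPM in the MN1806CN SCN:SBA libraries at 30 dpi, against 18.7, 22.5 and 19.6 CPM with SCN, 31.3, 24.7 and 46.5 CPM with SBA and 23.8 and 34.3 CPM in the control. The SCN:SBA libraries were well below all the others. In PI518671 at 30 dpi the gene lay at 28.5, 26.3 and 25.1 CPM with SCN:SBA, at 24.2, 33.6 and 29.8 CPM with SCN, at 23.9, 28.3 and 25.1 CPM with SBA and at 15.6, 17.5 and 16.9 CPM in the control. There the SCN:SBA libraries were among the others and all 9 infested libraries were above the control. In MN1806CN at 5 dpi SCN alone gave 1.73, 9.29 and 13.8 CPM, while the other 9 libraries lay between 1.56 and 4.88 CPM. The SCN:SBA level at 30 dpi was thus within the range of the 5 dpi libraries of the same cultivar.

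Glyma.17g065100, on chromosome 17 and of rank 2, had the largest difference of means, -3.49 on the log2(CPM + 1) scale. It was at 5.82, 8.50 and 3.62 CPM in MN1806CN SCN:SBA roots at 30 dpi, against 29.2, 23.7 and 57.5 CPM with SCN, 238, 86.3 and 251 CPM with SBA and 45.1 and 93.8 CPM in the control. In PI518671 at 30 dpi all infested libraries were above the control, with 145, 151.8 and 191 CPM for SCN:SBA, 104, 258 and 221 CPM for SCN and 104, 166 and 189 CPM for SBA, against 64.0, 68.7 and 74.2 CPM in the control. At 5 dpi SCN alone gave 5.64, 42.1 and 42.4 CPM in MN1806CN, against 1.33 to 9.24 CPM in the other 9 libraries. The lowest of these SCN values was within that range, and SCN against the control was not called (adjusted p = 0.13 by edgeR). In PI518671 SCN gave 189, 73.5 and 46.2 CPM, and the control held 3.82, 6.67 and 8.31 CPM. The 3 SCN replicates of 5 dpi spread widely in both cultivars.

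The genes of rank 3 and 7 lay at other levels. Rank 3 was at 3.04, 3.07 and 0.917 CPM with SCN:SBA in MN1806CN at 30 dpi, against 9.02 to 40.3 CPM in the other 8 libraries, and at no more than 1.09 CPM in any MN1806CN library at 5 dpi. It is 1 of 6 genes whose mean with SCN:SBA at 30 dpi stayed above all 12 libraries of 5 dpi. Unlike ranks 1 and 2 it was not above the control with infestation in PI518671 at 30 dpi, with 8.19, 8.79 and 8.21 CPM for SCN:SBA, 12.2, 13.2 and 16.8 CPM for SCN and 15.1, 6.61 and 5.99 CPM for SBA, against 14.7, 16.7 and 17.2 CPM in the control. Rank 7 was at 29.7, 41.3 and 29.9 CPM with SCN:SBA at 30 dpi, against 86.2 to 339 CPM in the other 8, and between 11.1 and 83.0 CPM at 5 dpi.

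The most abundant genes were not those with the largest gaps. The 6 with the highest means over the 8 libraries had the ranks 83, 62, 146, 129, 61 and 144. Rank 83 averaged 647 CPM with SCN:SBA and 1623 CPM in the other 8 libraries, and it also differed by cultivar, with means over PI518671 of 126 CPM at 30 dpi and 115 CPM at 5 dpi. Reads of both cultivars were mapped to the same reference, and the effect of that on this difference was not tested. Rank 62 averaged 233 against 631 CPM, rank 146 averaged 285 against 629 CPM, and rank 61 averaged 69.9 against 277 CPM. Rank 129 showed the steepest fall among them, at 19.6, 91.4 and 27.0 CPM with SCN:SBA, against 217, 166 and 121 CPM with SCN, 678, 700 and 633 CPM with SBA and 520 and 613 CPM in the control. Here SCN alone was again intermediate. It overlapped with neither SBA nor the control, while its separation from SCN:SBA was fixed by the choice of genes.

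**Figure D2:**
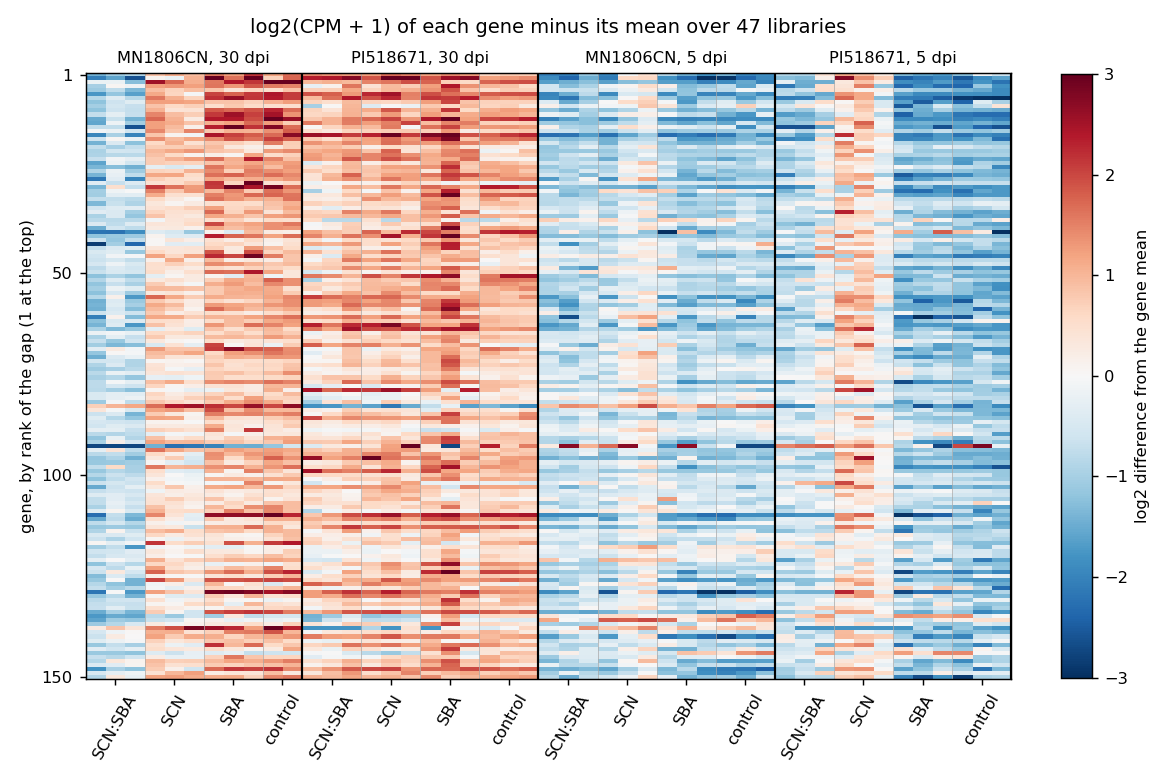
Level of each of the 150 genes (rows, by rank of the gap) in each of the 47 libraries (columns, by cultivar, time and treatment), as log2(CPM + 1) minus the mean of that gene over all libraries. Most rows are above their mean in most 30 dpi libraries and below it in most 5 dpi libraries, and the 3 MN1806CN SCN:SBA columns at 30 dpi are coloured like most 5 dpi columns. Of the 5 dpi libraries, PI518671 SCN replicates 1 and 2 had the highest medians of the 150 genes, at 3.85 and 3.995.

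Apart from the contrast that chose them, the genes shared a difference between the time points. In the MN1806CN control all 30 dpi libraries were above all 5 dpi libraries in 136 of the 150 genes, where 22.2% of all tested genes showed this, and the median difference was 1.77 in log2(CPM + 1). With SBA alone 135 genes did so (12.3% of all tested) with a median difference of 1.59, and with SCN alone 76 genes (16%) with a median difference of 0.71. Over all tested genes the median differences were -0.04, -0.14 and -0.07. With SCN:SBA the list as a whole showed no such difference. Only 8 genes were above all 5 dpi libraries, where 10.9% of all tested genes were, and 21 were below, where 15.7% were, and the median difference was -0.03.

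The choice favoured genes high in the 8 MN1806CN libraries and low in SCN:SBA at 30 dpi, so these time differences are not independent of it in MN1806CN. The 30 dpi libraries of PI518671 had no part in the choice. All 12 of its 5 dpi libraries entered through the condition, which limits how far the 9 infested libraries can lie above the control, so the time differences in PI518671 are not independent of the choice either and are given as a description. In the PI518671 control 142 of the 150 genes were higher at 30 dpi without overlap (28% of all tested), with a median difference of 1.91 against 0.25 over all tested genes. Without the 2 control libraries of 5 dpi that stood apart, only replicate 1 of that control was left, which makes separation easier for any gene. The count was then 144, and the share of all tested genes at that setting was not computed. With SBA alone 131 genes were higher (8.62% of all tested) by a median of 2.03, with SCN:SBA 93 genes (8%) by 1.03, and with SCN alone 42 genes (10.7%) by 0.50. Across all PI518671 libraries 145 of the 150 genes had the higher mean at 30 dpi (44.5% of all tested). Without overlap between the 12 libraries of each time point 6 genes were higher (0.199% of all tested).

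In MN1806CN the SCN:SBA level at 30 dpi was compared with that of 5 dpi gene by gene. The mean of the 3 libraries fell inside the range of the 12 MN1806CN libraries at 5 dpi for 128 of the 150 genes. It was below that range for 16 and above it for 6. The range spans all treatments, and the share of all tested genes inside it was not computed. The median difference between the SCN:SBA libraries at 30 dpi and all 5 dpi libraries was -0.16, against 0.02 over all tested genes. Single genes ran from -2.98 to 1.35. By their means 91 genes were lower and 59 higher, where 48.2% and 51.7% of all tested genes were. Without overlap 8 were lower and 1 higher (3.95% and 4.66% of all tested). Of the 16 groups of the study, MN1806CN SCN:SBA at 30 dpi held the lowest mean for 20 genes, while the PI518671 control and SBA groups at 5 dpi held it for 74 and 29. That control, with its 2 libraries that stood apart, was also the lowest group over all tested genes, with medians that averaged 2.25. The shares of all tested genes with their lowest or highest mean in each group were not computed. The highest mean was in PI518671 SBA at 30 dpi for 53 genes, in the MN1806CN control at 30 dpi for 37 and in MN1806CN SBA at 30 dpi for 27.

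**Figure D3:**
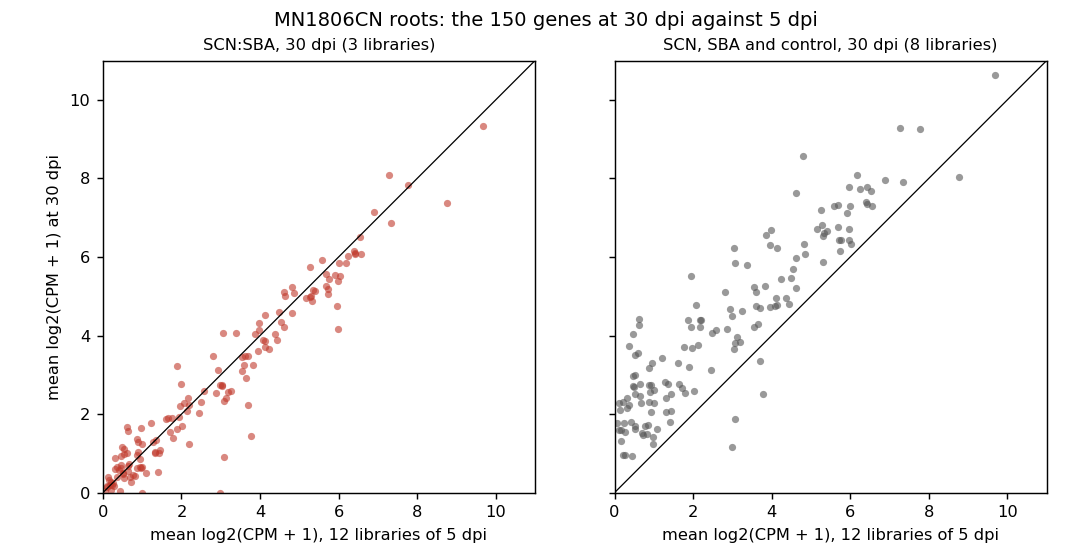
Mean log2(CPM + 1) of each of the 150 genes in MN1806CN at 30 dpi (vertical axis) against its mean over the 12 MN1806CN libraries at 5 dpi (horizontal axis), for SCN:SBA on the left and for the 8 SCN, SBA and control libraries on the right, with the line of equal levels. The SCN:SBA points lie on both sides of the line, 91 of them below it, and 145 of the 150 points on the right lie above it.

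A few genes went against this pattern. In MN1806CN the genes of rank 93, 118, 135, 136 and 144 were lower at 30 dpi than at 5 dpi in the mean of the SCN, SBA and control groups, by 1.46, 0.51, 1.36, 1.53 and 0.86 on the log2(CPM + 1) scale. Rank 93 was at 0 in all 3 SCN:SBA libraries at 30 dpi and between 0.385 and 3.52 CPM in the other 8, but reached 42.8 CPM in an MN1806CN SCN:SBA library at 5 dpi and was at 0 in 2 of the 3 MN1806CN controls of that time. Its replicates differed widely at 5 dpi, with 5.19, 0 and 0 CPM in that control and 20.5, 41.8 and 5.20 CPM with SCN. Rank 144 was at 170, 170 and 159 CPM with SCN:SBA at 30 dpi, against 222 to 309 CPM in the other 8 libraries, and averaged 491 CPM over MN1806CN at 5 dpi.

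Across the 36 libraries outside MN1806CN at 30 dpi the 150 genes varied together. The correlation of each gene with the median profile of the others had a median of 0.88 over these libraries, was above 0.5 for 139 genes and below 0 for 5. Among all tested genes the correlation with the same profile had a median of -0.07 and was above 0.5 for 9.73%. The points share libraries and depth and hold both time points. Among them, the PI518671 libraries of 5 dpi entered the choice of the genes. Within single blocks of 12 libraries the median correlation was 0.64 in PI518671 at 30 dpi, 0.61 in MN1806CN at 5 dpi and 0.83 in PI518671 at 5 dpi, with 26, 13 and 4 genes below 0. Over all tested genes these medians were -0.28, -0.04 and 0.01. The correlation was above 0.5 for 92, 96 and 132 of the 150 genes, against 11.9%, 9.24% and 11.5% of all tested genes. The highest value was thus in the block that the choice had used.

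By the chromosome number in their identifiers the genes were spread over all 20 chromosomes. Chromosome 1 held 15 of them, 10% of the list against 4.29% of the tested genes, and chromosome 8 held 4, 2.67% against 6.84%. Only 8 genes had another of the 150 within 10 places in the numbering along a chromosome. Most of the list was thus not made of neighbouring genes.

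The groups of PI518671 at 30 dpi and of MN1806CN at 5 dpi, libraries that had no part in the choice, were then tested with the quasi-likelihood test of edgeR and Benjamini-Hochberg adjustment over all 43122 genes. In PI518671 at 30 dpi all 150 genes reached 0.5 CPM in at least 1 library. The median of the 150 genes was 3.70, 3.67 and 4.21 with SCN:SBA, against 3.88, 4.11 and 3.85 with SCN, 4.21, 4.59 and 4.02 with SBA. The control held 4.04, 4.11 and 4.01. Replicates 1 and 2 of SCN:SBA were the lowest of the 12 libraries and replicate 3 lay among the highest. Lower in all SCN:SBA libraries than in the other 9 were 2 genes (1.33% of the 150), and none was higher, against 0.276% and 0.661% of all tested genes. Set against the control alone, the mean with SCN:SBA was lower in 100 genes and higher in 50 (47.3% and 52.4% of all tested). The median difference in log2(CPM + 1) was -0.22, against 0.02 over all tested genes. Without overlap 48 were lower and 20 higher (15.4% and 18.2% of all tested).

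No gene passed an adjusted p of 0.05 by edgeR when SCN:SBA was compared with the mean of the other 3 PI518671 groups at 30 dpi, nor did any of the tested genes (0%). At an unadjusted p under 0.05, 31 of the 150 were lower and 3 higher, where 4.24% and 6.25% of all tested genes were. The log2 fold change was below 0 for 125 of the 150, with a median of -0.41 against 0.01 over all tested genes. DESeq2 called 3 genes lower and 1 higher (0.295% and 0.378% of all tested). A single library decided the edgeR count, since without PI518671 SBA replicate 3 at 30 dpi 26 of the 150 were called lower and 1 higher (2.85% and 5.33% of all tested). Without SBA replicate 2 the median log2 fold change was -0.22.

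Each pest alone was compared with the control in PI518671 at 30 dpi, and these comparisons share the 3 control libraries. With SCN, 2 of the 150 genes rose and none fell by edgeR, where 0.306% and 0.051% of all tested genes did, and the median log2 fold change was -0.10 against 0.02 over all tested genes. At an unadjusted p under 0.05, 7 were lower and 20 higher (5.89% and 8.55% of all tested), and DESeq2 called 3 lower and 12 higher (1.78% and 2.94%).

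The 2 genes that rose were of rank 22 and 68. Glyma.10g295200, rank 22 and on chromosome 10, was at 10.04, 14.3 and 11.3 CPM with SCN, against 3.57, 3.38 and 3.30 CPM in the control. Its log2 fold change was 1.76 (SE 0.27, adjusted p = 0.0327 by edgeR). Glyma.04g021200, rank 68 and on chromosome 4, was at 34.2, 24.9 and 30.4 CPM with SCN, against 11.4, 9.52 and 9.27 CPM in the control, a log2 fold change of 1.52 (SE 0.25, adjusted p = 0.0333 by edgeR). Neither overlapped between the groups, and both were also above the control in all SCN:SBA libraries, with 8.81, 7.70 and 13.5 CPM for Glyma.10g295200 and 41.6, 27.2 and 33.5 CPM for Glyma.04g021200. In MN1806CN SCN:SBA roots at 30 dpi the same genes were low, at 1.45, 2.72 and 2.30 CPM for Glyma.10g295200 and at 5.02, 3.86 and 4.14 CPM for Glyma.04g021200. Both calls are near the threshold. No gene of the 150 was called higher without either of SCN replicates 2 and 3, SCN:SBA replicate 2 or any 1 of the control libraries, and none with the replicate number as a block. Without SBA replicate 2, 9 were called higher and 3 lower (1.42% and 0.814% of all tested), and without SBA replicate 3 the counts were the same (3.56% and 2.03% of all tested).

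**Figure D4:**
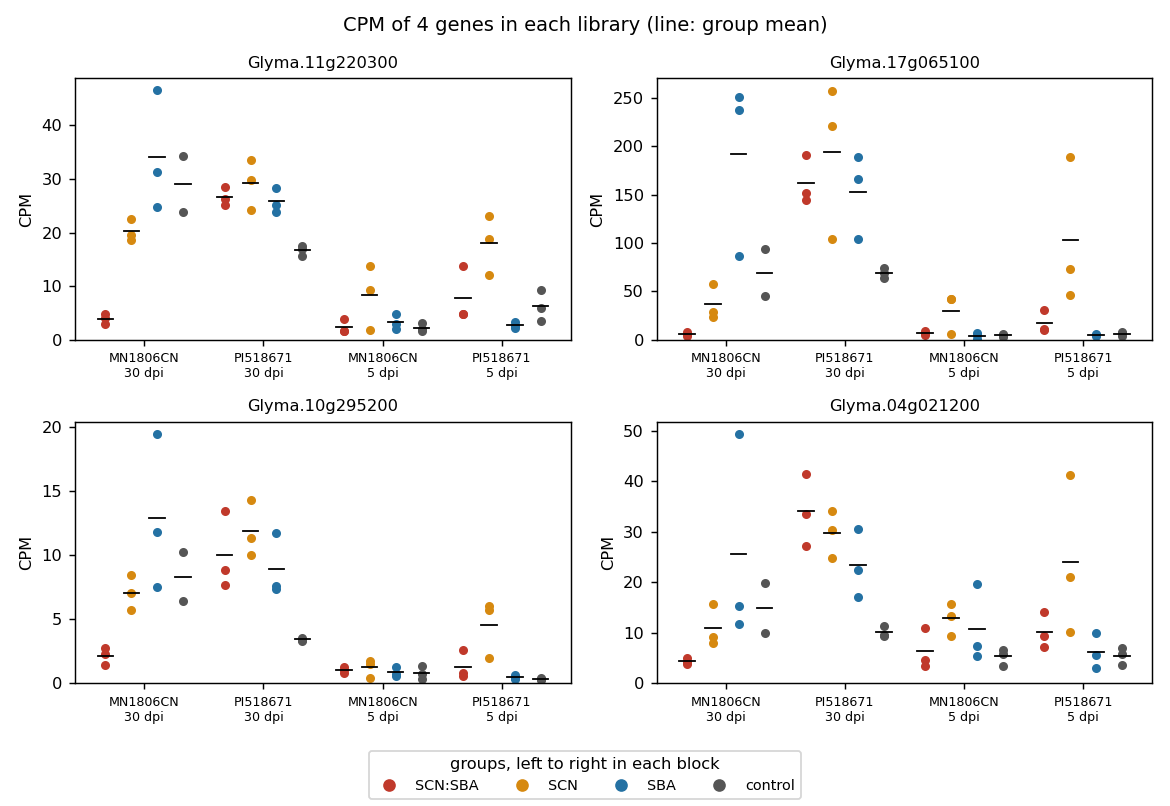
CPM of 4 of the genes in every library, by cultivar and time, with SCN:SBA, SCN, SBA and control from left to right in each block and the group mean as a line. In MN1806CN at 30 dpi the 3 SCN:SBA points are the lowest of each panel's block, and in PI518671 at 30 dpi they lie above the control.

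With SBA alone in PI518671 at 30 dpi, none of the 150 genes was called by edgeR in either direction, where 0.00696% of all tested genes rose and 0% fell. At an unadjusted p under 0.05, 52 genes were higher and none lower, against 9.92% and 5.69% of all tested genes. The log2 fold change was above 0 for 131 of the 150, with a median of 0.56 against 0.08 over all tested genes. DESeq2 called 15 genes higher and none lower (2% and 1.21% of all tested). Without SBA replicate 3, whose median of the 150 genes was 4.02 against 4.21 and 4.59 in the other SBA libraries, edgeR called 50 higher and 1 lower (5.89% and 5.02% of all tested). In the SBA libraries the median over all tested genes was 2.67, 2.34 and 2.89, lowest in replicate 2, the library in which the 150 genes were highest. Without that library the median log2 fold change was 0.21 and edgeR called none.

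At 5 dpi MN1806CN was at a low level throughout. A total of 144 of the 150 genes reached 0.5 CPM in at least 1 of the 12 libraries. The median of the 150 was 2.64, 2.26 and 2.41 with SCN:SBA, 2.62, 3.13 and 3.32 with SCN, 2.79, 2.11 and 2.14 with SBA. The control held 2.31, 2.15 and 2.44. SCN alone was the highest group, although its replicate 1 overlapped with SCN:SBA and SBA.

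SCN:SBA was compared with the mean of the other 3 MN1806CN groups at 5 dpi, and none of the 150 genes was called by edgeR (0.327% of all tested genes fell and 0.826% rose). At an unadjusted p under 0.05, 25 were lower and none higher, where 11.4% and 12.1% of all tested genes were. The median log2 fold change was -0.31 against 0.03 over all tested genes, and it was below 0 for 111 genes. DESeq2 called 12 lower and none higher (4.91% and 3.78% of all tested), and edgeR called 12 lower without SBA replicate 2 (4.32% of all tested) and 2 lower without control replicate 2 (2.95%). With the replicate number as a block edgeR called 7 of the 150 lower and none higher, where 4.16% and 3.69% of all tested genes were called, so that the share of the 150 was close to that of all genes. Only 1 gene was lower in all SCN:SBA libraries than in the other 9, where 1.13% of all tested genes were.

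SCN alone against the control, the comparison in which MN1806CN roots at 30 dpi had been lower, had the opposite sign at 5 dpi. The difference between the time points was not tested. All SCN libraries were above all control libraries in 47 of the 150 genes (15.1% of all tested) and below them in 2 (7.36%). By edgeR none of the 150 was called in either direction, where 0.00464% of all tested genes rose and 0% fell, and 41 were higher and 2 lower at an unadjusted p under 0.05 (9.07% and 8.19% of all tested). The median log2 fold change was 0.61 against 0.01 over all tested genes, and it was above 0 for 120 genes. DESeq2 called 9 higher and 2 lower (2.55% and 2.91% of all tested). Without SCN replicate 1, the SCN library with the lowest level, edgeR called 6 genes higher (0.557% of all tested). Without SCN replicate 3, the SCN library with the highest level, it called none, the median log2 fold change was 0.28 and 14 genes were higher at an unadjusted p under 0.05. SBA alone against the control, which shares these control libraries, gave no call among the 150 or among all tested genes by edgeR (0%), with a median log2 fold change of -0.14 against 0.03. At an unadjusted p under 0.05, 13 of the 150 were lower and 4 higher (9.08% and 10.4% of all tested), and DESeq2 called 2 lower and none higher (4.06% and 3.94%).

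In PI518671 at 5 dpi the median of the 150 genes was 2.28, 2.49 and 3.22 with SCN:SBA, 3.85, 3.995 and 2.96 with SCN, 2.07, 2.02 and 1.95 with SBA. The control held 2.18, 2.07 and 2.09. SCN alone was again the highest group by its mean, 3.60 ± 0.56 (SD, n = 3), and SCN replicate 3 overlapped with SCN:SBA. All SCN libraries were above all SBA libraries in 111 of the 150 genes (9.74% of all tested) and below in 1 (17.7%). They were above all control libraries in 124 genes (26.7% of all tested), a comparison in which the choice used the control, although it set a limit on how far the control could lie below the others. SCN:SBA compared with the mean of SCN and SBA gave no call by edgeR among the 150 or among all tested genes (0%), with 8 lower and 2 higher at an unadjusted p under 0.05 (0.494% and 2.09% of all tested). These 9 libraries set the median that the condition on PI518671 used, so neither this test nor the count against SBA is independent of the choice. The edgeR test was weak here, with 36.5% of planted changes of 2 in log2 recovered in simulated data. DESeq2 called none of the 150 lower or higher (0.00232% and 0.0325% of all tested). The median log2 fold change was -0.09 against 0.02 over all tested genes, and it had no stable direction, with 0.12 without SCN:SBA replicate 2 and -0.48 without SCN:SBA replicate 3.

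**Figure D5:**
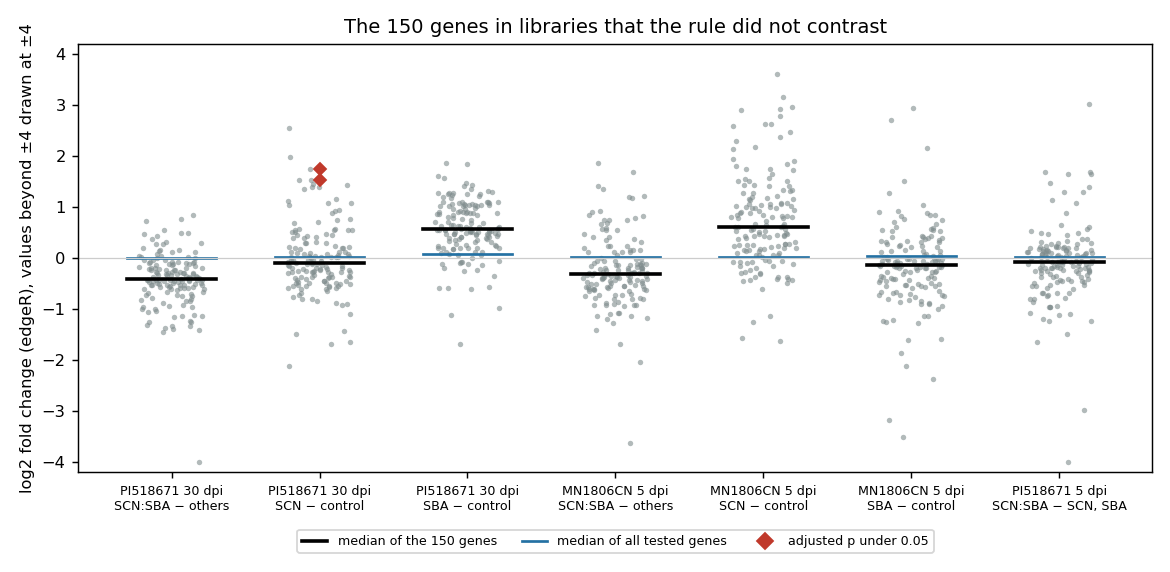
Log2 fold change of each of the 150 genes in 7 comparisons other than the contrast of the choice (grey points), with the median of the 150 genes (black line), the median of all tested genes (blue line) and genes with an adjusted p under 0.05 by edgeR (red diamonds). The medians of the 150 genes run from -0.41 for SCN:SBA in PI518671 at 30 dpi to 0.61 for SCN in MN1806CN at 5 dpi, and 2 genes passed, both higher with SCN in PI518671 at 30 dpi.

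Between the cultivars at 30 dpi the median difference of the 150 genes was largest with both pests. All MN1806CN SCN:SBA libraries were below all PI518671 SCN:SBA libraries in 120 genes (18% of all tested) and above in 2 (26.6%), with a median difference of -1.25 in log2(CPM + 1). With SCN alone MN1806CN was below PI518671 in 65 genes (25.2% of all tested) and above in 19 (19.8%), with SBA alone below in 25 (13.4%) and above in 19 (10.5%), and in the control below in 20 (27.6%) and above in 68 (18.2%). The median differences were -0.30, -0.21 and 0.25. The MN1806CN libraries of these comparisons were those that chose the genes, so the differences between cultivars were not tested. Reads of both cultivars were mapped to the same soybean reference, which by its label comes from PI518671. In the paper the share of reads mapped was lower in every MN1806CN library at 30 dpi than in any PI518671 library at 30 dpi. How far this shifted the levels of single genes between the cultivars was not tested.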

How the data were processed

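The study sequenced RNA of whole soybean roots in 47 libraries. Per the labels and methods, the authors trimmed the reads, checked them with FastQC 0.11.3 and MultiQC 1.3, and ran Salmon 0.9.1 against primary transcripts (soybean annotation Wm82.a2.v1). The deposited table holds Salmon's estimated counts by gene, neither normalized nor filtered, of which 42.7% are fractional. No replicates were pooled or identical (the smallest chi-square per gene among 46 replicate pairs was 13.1).

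CPM was computed on column totals, and the 150 genes were chosen on log2(CPM + 1) as described. The genes, lists and tests were chosen with earlier results of these data known. The rule for named genes took ranks 1 to 10, the 6 most abundant and those called in a test, with few given in full, since the identifiers carry no names. Lists by gene name, marker lists and promoter motifs could not be applied for the same reason, and no sequence is given.

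For the tests, counts were rounded to whole numbers and genes of at least 0.5 CPM in at least 1 of the 47 libraries were kept (43122). Each cultivar and time point was fitted on its own with TMM factors and the quasi-likelihood test of edgeR 4.0.16 in R 4.3.3, with Benjamini-Hochberg adjustment and a threshold of 0.05. Depth, given above, sets the precision, and p-values measure the spread between the deposited replicates. Alternatives were other size factors, no filter and edgeR's own filter on low counts, DESeq2 1.42.0, the replicate number as a block and each library left out. The edgeR step was tested on simulated data, in which 200 genes were changed by 2 in log2 with SCN:SBA. It recovered 80.5% of them in PI518671 at 30 dpi, 79.5% in MN1806CN at 5 dpi and 36.5% in PI518671 at 5 dpi. False calls were 6.4%, 8.1% and 2.7% of the genes called, so in the first 2 they exceeded the threshold.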

Additional observations from a re-analysis of the deposited data

Results flagged for a closer look

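The median log2(CPM + 1) of the 150 genes with SCN alone minus the mean of the control was 0.72 in MN1806CN at 5 dpi, with 0.32, 0.83 and 1.02 in the 3 SCN libraries. The same difference in MN1806CN at 30 dpi was -0.75, with -0.54, -0.69 and -1.02. Every SCN library of one time point was above its control mean and every SCN library of the other was below it. The difference between the time points was not tested, the libraries of 30 dpi had a part in the choice of the genes, and time and water bath cannot be told apart.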

How the results depend on the processing

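Which genes are in the list depends on how it was drawn. Of the 150 genes, TMM-scaled CPM kept 48.7%, a constant of 4 in the logarithm 42.0%, a difference of group means 50.7%, no condition on PI518671 at 5 dpi 4.0%, and leaving out the 2 PI518671 control libraries that stood apart, an alternative chosen after seeing the data, 44.0%. Leaving out 1 MN1806CN library of 30 dpi at a time kept 56.0% to 98.7%, lowest without SCN:SBA replicate 2. A constant of 0.5 kept 75.3%.

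Among the tests, DESeq2 gave more calls in 6 of 7 comparisons. In PI518671 at 30 dpi it called 3 lower and 1 higher for SCN:SBA, 3 lower and 12 higher for SCN and 15 higher for SBA. In MN1806CN at 5 dpi it called 12 lower for SCN:SBA, 2 lower and 9 higher for SCN and 2 lower for SBA. The cause was not tested. Leaving out 1 library at a time gave 0 to 26 lower and 0 to 1 higher for SCN:SBA, 0 to 3 lower and 0 to 9 higher for SCN, and 0 to 1 lower and 0 to 50 higher for SBA in PI518671 at 30 dpi, and 0 to 12 lower for SCN:SBA and 0 to 6 higher for SCN in MN1806CN at 5 dpi. Other size factors and filters left each count within 1.5 times. Genes near 0.5 CPM rest on few counts.

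The study's plants came from blocks of a randomized design, and no source used here says that the replicate numbers name those blocks. Deviations of same-numbered libraries correlated at -0.17 to 0.44 in MN1806CN at 5 dpi, with a mean of 0.14 against -0.07 for other pairs. There 10 of 12 libraries were closest to their own number. The correlations were -0.23 to 0.35 in PI518671 at 30 dpi and -0.40 to 0.35 in PI518671 at 5 dpi, with 6 and 2 of 12 closest to their own. Same-numbered libraries thus tended to deviate together in MN1806CN at 5 dpi, and not clearly in PI518671. The main fits did not use the number. With the number as a replicate block, 118 of the 150 genes were kept, and 0 were called higher for SCN in PI518671 at 30 dpi (0% of all tested). For SCN:SBA in MN1806CN at 5 dpi 7 were called lower (4.16% of all tested), against 0 without the block (0.327% of all tested).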
